A study of Mus musculus with 32 samples.

Results

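The 10 genes described here mark the endothelial cells of brain vessels and the barrier those cells form: Cldn5, Ocln, Pecam1, Cdh5, Mfsd2a, Slc2a1, Abcb1a, Abcg2, Slco1c1 and Gkn3. They were taken by symbol from the annotated expression matrix, where the 16195 named genes share 18328 probe sets. Each of the 10 had exactly 1 probe set, and 2 of them stood under an older symbol and were matched by gene identifier (Mfsd2a as Mfsd2, Gkn3 as 1190003M12Rik). The genes were chosen with their differences between glioma and normal brain in view, so those differences are given as a description. Where members past a threshold are counted in them, the share over all probe sets stands beside the count and nothing is read from it.

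Mouse gliomas and normal brain were profiled on Affymetrix mouse genome arrays in 2 sets whose titles begin with Z1 and Z2. Set Z1 held 9 gliomas of hGFAP-cre;p53KO/+;Nf1+/flox mice, called cis p53/Nf1 gliomas here, and 3 normal forebrains. Set Z2 held 9 gliomas of hGFAP-cre;p53flox/flox mice (p53 gliomas), 4 gliomas of hGFAP-cre;p53flox/flox;Nf1KO/+ mice (p53 Nf1KO gliomas), 4 normal forebrains and 3 normal cerebella. The hGFAP-cre transgene is in every glioma model and is active in neural and glial progenitors. Flox alleles are therefore recombined mainly in the neural lineage, while a KO allele is carried by every cell of the mouse, endothelium included. The normal tissues are described only as wild-type control tissue, and no ages are given. The labels do not say whether the arrays of a group came from separate animals, so the p-values below measure the spread between these arrays.

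Endothelial cells of the brain are joined by tight junctions that close the path between cells, and most nutrients and drugs can pass only through transporters in their membranes. Influx carriers bring in glucose, thyroid hormone and lipids, while efflux pumps return foreign compounds to the blood. Signals from neighbouring neural cells and pericytes keep this state, and it is often altered in the vessels of high-grade gliomas.

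Levels are the deposited log2 values, on which a difference of 1 is a doubling. The sets lie on unlike scales, with array medians of 8.48 to 8.57 in the former and 6.90 to 7.06 in the latter, and with standard deviations over probe sets of 2.01 to 2.12 and 2.58 to 2.66, so levels were compared within a set only. Among the Z2 gliomas, p53 glioma 1 lay at 16.9% of the mean change from forebrain over all probe sets, against 79.9% to 139.9% for the other p53 gliomas. Of the p53 Nf1KO gliomas, glioma 2 lay lowest, at 59.8%. As a check of the labels, mean Nf1 was 5.55 in p53 Nf1KO gliomas, 6.33 in p53 gliomas and 6.19 in Z2 forebrain, and 7.98 in cis p53/Nf1 gliomas against 7.90 in Z1 forebrain. Mean Trp53 was 5.30, 5.79 and 6.07 in the same Z2 groups, and 7.92 against 8.26 in Z1. Prm1, a protamine gene normally active in spermatids and named here after its values were seen, set 1 control apart. It read 9.98 to 12.83 in all gliomas and 0.99 to 1.83 in the Z2 normal tissues, but 4.15, 10.01 and 3.95 in the 3 Z1 forebrains. By this gene alone, Z1 forebrain 2 stood near the gliomas against its label. The mean of 8 neuron markers was 12.32 to 12.63 in the Z1 forebrains, against 6.83 to 9.17 in cis p53/Nf1 gliomas. Abcg2, a member chosen with its difference from forebrain in view, read 9.07 in Z1 forebrain 2, against 10.36 to 11.01 in those gliomas. Why its Prm1 was high was not tested. Differences and counts that rest on Z1 forebrain are also given without forebrain 2 where they moved, an alternative chosen after the data were seen.

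The barrier genes did not move as a block in these gliomas. Relative to forebrain of the same set, Abcg2 was higher in each of the 3 glioma models, by 1.49-fold to 3.41-fold, while Abcb1a, Slco1c1 and Gkn3 had negative mean differences in each, from -0.52 to -1.26 for Abcb1a, -0.47 to -1.69 for Slco1c1 and -0.59 to -3.07 for Gkn3. The smallest of these did not pass the threshold: Abcb1a and Slco1c1 in p53 Nf1KO gliomas and Gkn3 in cis p53/Nf1 gliomas. The endothelial adhesion genes Pecam1 and Cdh5 lay within 0.40 log2 of forebrain in every model. In this bulk tissue, fewer endothelial cells and less RNA per cell cannot be told apart.

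Promoter windows of 300 bases, lying mostly upstream of the start site, were available in RefSeq (GRCm38.p6) for 8 of the 10 genes. The windows of Cldn5, Ocln, Abcb1a and Slco1c1 are shown because these genes stand for the contrasting behaviours below: Cldn5 varied among gliomas with the endothelial genes, Ocln and Abcb1a varied together, and Slco1c1 was the carrier whose level was furthest below forebrain in cis p53/Nf1 gliomas. Capitals mark matches, on either strand, to the ETS core AGGAAG, the TCF/LEF core CTTTGA, the hypoxia response core ACGTG and the GC box GGGCGG. Each is printed 5′ to 3′ on the strand of its gene.
Cldn5, chr16:18776597-18776896, plus strand: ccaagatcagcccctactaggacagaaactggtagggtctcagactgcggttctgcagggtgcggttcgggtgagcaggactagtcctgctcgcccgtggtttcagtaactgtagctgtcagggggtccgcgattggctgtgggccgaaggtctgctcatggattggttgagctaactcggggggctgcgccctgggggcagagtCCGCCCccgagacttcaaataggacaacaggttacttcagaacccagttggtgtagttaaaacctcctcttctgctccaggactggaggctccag
Ocln, start site 1, chr13:100552669-100552968, minus strand: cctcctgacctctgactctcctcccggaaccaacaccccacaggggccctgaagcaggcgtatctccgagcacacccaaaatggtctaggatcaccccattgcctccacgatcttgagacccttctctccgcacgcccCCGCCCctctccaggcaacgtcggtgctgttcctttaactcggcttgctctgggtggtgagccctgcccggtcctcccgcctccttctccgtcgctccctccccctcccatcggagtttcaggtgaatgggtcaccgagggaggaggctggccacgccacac
Abcb1a, chr5:8566841-8567140, plus strand: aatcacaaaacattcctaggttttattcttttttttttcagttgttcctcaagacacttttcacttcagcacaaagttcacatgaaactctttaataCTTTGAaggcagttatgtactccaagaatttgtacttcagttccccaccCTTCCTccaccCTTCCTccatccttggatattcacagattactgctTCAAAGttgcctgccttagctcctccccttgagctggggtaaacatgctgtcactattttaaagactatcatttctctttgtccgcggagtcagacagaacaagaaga
Slco1c1, chr6:141524104-141524403, plus strand: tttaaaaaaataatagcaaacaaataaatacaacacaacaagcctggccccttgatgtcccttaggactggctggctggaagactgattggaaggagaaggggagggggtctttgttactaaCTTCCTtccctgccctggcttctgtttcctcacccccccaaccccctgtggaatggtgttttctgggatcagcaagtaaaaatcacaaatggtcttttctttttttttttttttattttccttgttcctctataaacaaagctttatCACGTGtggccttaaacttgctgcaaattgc

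The Cldn5 and Ocln windows held 1 GC box each. The Abcb1a window held 2 ETS cores and 2 TCF/LEF cores, and that of Slco1c1 held 1 ETS core and 2 overlapping matches to the hypoxia core on opposite strands. Of the 8 genes with a window, 3 held the ETS core, 2 the TCF/LEF core, 3 the hypoxia core and 4 the GC box in at least 1 start site. Among all 32851 promoter windows of the table the shares were 35.4% for the ETS core, 16.003% for the TCF/LEF core, 19.6% for the hypoxia core and 35.7% for the GC box. These shares are per window, while the 8 genes had 11 windows and were counted per gene, so the units differ. The Gkn3 window held none of these letters.

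The junction genes were examined first. Cldn5 encodes claudin-5, the main claudin of the brain endothelial tight junction. It read 9.37, 9.76 and 9.51 in the Z1 forebrains, and 9.27, 10.25 and 11.04 (lowest, median and highest) in the 9 cis p53/Nf1 gliomas. The lowest glioma fell below every forebrain, and the groups overlapped. In Z2 its level was 8.02, 8.17, 8.56 and 8.41 in forebrain, 8.19 to 9.57 with a median of 8.86 in p53 gliomas, and 8.07, 9.12, 8.65 and 8.35 in p53 Nf1KO gliomas. Cldn5 was thus higher than forebrain on average by 0.75 ± 0.29 (SE of the fit) in the cis model, by 0.53 ± 0.26 in the p53 model and by 0.25 ± 0.31 with the Nf1KO allele, with overlapping arrays in each.

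Ocln encodes occludin, a membrane protein of tight junctions that also occurs outside vessels. Its level in p53 gliomas ran from 4.86 to 6.64 with a median of 5.81, against 7.04, 6.60, 6.60 and 6.69 in Z2 forebrain. The highest p53 glioma lay just above the lowest forebrains, so the groups overlapped, with a mean difference of -0.88 ± 0.32. In p53 Nf1KO gliomas Ocln read 6.50, 6.94, 6.33 and 6.20, a mean difference of -0.24 ± 0.38. Z1 showed a like mean difference of -0.24 ± 0.36, with forebrains at 7.35, 7.32 and 7.53 and cis p53/Nf1 gliomas between 5.94 and 7.87.

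Pecam1 and Cdh5 encode PECAM-1 and VE-cadherin, adhesion proteins found in endothelium throughout the body, so they are not particular to the barrier. Pecam1 read 7.37, 7.20 and 7.34 in Z1 forebrain and 6.83, 7.57 and 8.17 (lowest, median and highest) in cis p53/Nf1 gliomas. Cdh5 read 6.58, 6.37 and 6.59 in the same forebrains and 6.07, 6.96 and 7.62 in the gliomas. Both genes spread more widely among gliomas than among forebrains, to either side of them. Mean differences from forebrain for Pecam1 were 0.32 ± 0.32, 0.29 ± 0.29 and 0.08 ± 0.34 in cis p53/Nf1, p53 and p53 Nf1KO gliomas, and for Cdh5 they were 0.40 ± 0.28, 0.27 ± 0.26 and 0.12 ± 0.30. Quantile normalization within the set turned the sign of the p53 Nf1KO means to -0.04 for Pecam1 and -0.00 for Cdh5.

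**Figure D1:**
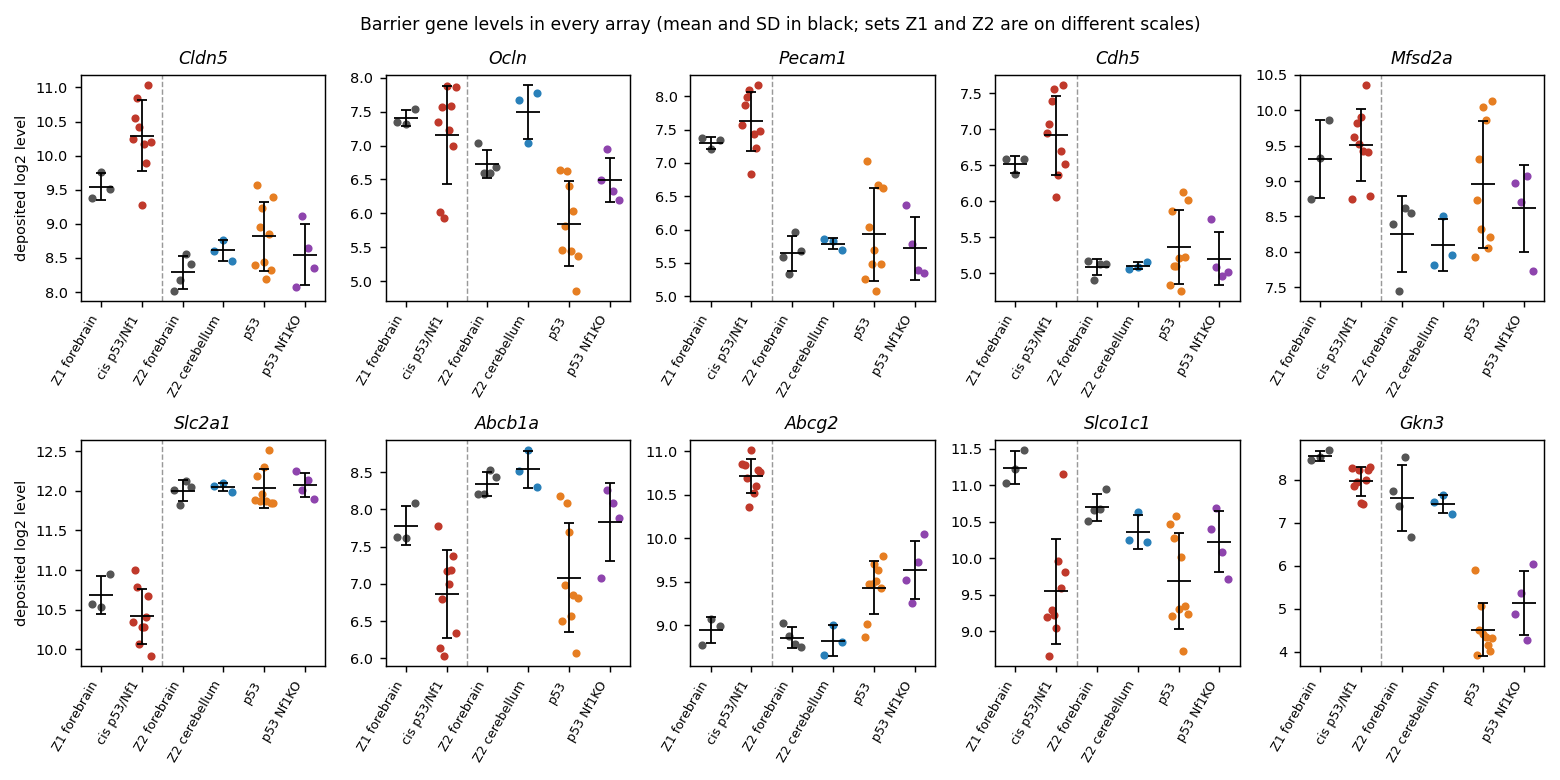
Each panel plots the deposited log2 level of 1 barrier gene in all 32 arrays (points) by group, with the group mean and SD in black and a dashed line between sets Z1 and Z2, whose scales differ. Abcg2 in the 9 cis p53/Nf1 gliomas lies above every Z1 forebrain, and Gkn3 in the Z2 gliomas lies below every Z2 forebrain.

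The transporters parted into directions. Abcb1a and Abcg2 encode the main efflux pumps of the barrier, P-glycoprotein and the breast cancer resistance protein. Abcb1a read 8.21, 8.21, 8.53 and 8.43 in Z2 forebrain and 6.06, 6.85 and 8.17 (lowest, median and highest) in p53 gliomas. Every p53 glioma lay below every forebrain, with a mean difference of -1.26 ± 0.33, or 2.40-fold lower. In p53 Nf1KO gliomas it read 7.07, 8.26, 8.08 and 7.89, of which glioma 2 reached the forebrain range (-0.52 ± 0.39). In Z1 the forebrains read 7.63, 7.62 and 8.08 and the gliomas 6.03, 6.9995 and 7.77, an overlapping difference of -0.91 ± 0.36 (1.88-fold lower).

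In cis p53/Nf1 and p53 Nf1KO gliomas, Abcg2 stood furthest above forebrain of all members. Mfsd2a had the larger mean difference in p53 gliomas, at 0.70 ± 0.38. Abcg2 read 8.78, 9.07 and 8.996 in Z1 forebrain, against 10.36, 10.77 and 11.01 (lowest, median and highest) in cis p53/Nf1 gliomas. No array overlapped, and the difference was 1.77 ± 0.16, or 3.41-fold higher. In Z2 it read 9.03, 8.88, 8.78 and 8.75 in forebrain, 8.87, 9.47 and 9.80 in p53 gliomas, and 9.52, 9.25, 9.73 and 10.04 in p53 Nf1KO gliomas. The p53 gliomas overlapped forebrain with a difference of 0.57 ± 0.15 (1.49-fold), and the p53 Nf1KO gliomas lay above all forebrains with 0.78 ± 0.17 (1.71-fold). Abcg2 is also expressed outside endothelium, in stem and progenitor cells among others.

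Slco1c1 encodes OATP1C1, the thyroxine carrier of brain endothelium, which astrocytes also express in mouse. It read 11.02, 11.21 and 11.48 in Z1 forebrain and 8.66, 9.29 and 11.15 (lowest, median and highest) in cis p53/Nf1 gliomas. Only glioma 8, at 11.15, came within the forebrain range, and the mean difference was -1.69 ± 0.37 (3.23-fold lower). In Z2 the forebrains read 10.50, 10.66, 10.67 and 10.94 and the p53 gliomas 8.73, 9.34 and 10.58, which overlapped (-1.01 ± 0.33, 2.01-fold lower). The p53 Nf1KO gliomas read 10.40, 10.69, 10.08 and 9.72, with a mean difference of -0.47 ± 0.39.

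Slc2a1 encodes GLUT1, the glucose carrier of the barrier, and Mfsd2a encodes a lysolipid carrier that also holds down vesicle transport across the endothelium. Slc2a1 read 10.57, 10.53 and 10.95 in Z1 forebrain and 9.92, 10.34 and 11.01 (lowest, median and highest) in the gliomas of that set, a difference of -0.27 ± 0.17. In Z2 it lay between 11.82 and 12.51 in all groups, and its mean differences from forebrain were 0.03 ± 0.15 in the p53 model and 0.07 ± 0.18 with the Nf1KO allele. The value for p53 gliomas turned to -0.04 when each array was centred on its median. Within its array, Slc2a1 stood at the 98.1 to 99.5 percentile of all probe sets in p53 gliomas and at 98.15 to 98.83 in Z2 forebrain. In Z1 it stood at the 72.9 to 86.8 percentile in cis p53/Nf1 gliomas and at 80.4 to 85.4 in forebrain. The gap between the sets was thus present in normal brain as well. How far a probe set so near the top of the Z2 range can register a rise was not tested.

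Mfsd2a varied widely within groups. It read 8.75, 9.32 and 9.86 in Z1 forebrain against 8.74 to 10.36 in cis p53/Nf1 gliomas, and 8.39, 7.45, 8.61 and 8.55 in Z2 forebrain against 7.92 to 10.12 in p53 gliomas. The p53 Nf1KO gliomas read 8.97, 8.71, 9.07 and 7.72. All 3 models overlapped forebrain, with differences of 0.20 ± 0.43, 0.70 ± 0.38 and 0.36 ± 0.45 in that order.

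Gkn3 encodes gastrokine 3, a marker of arterial endothelium in mouse brain, and was the member with the widest difference between sets. It read 7.74, 7.40, 8.53 and 6.68 in Z2 forebrain, 3.93, 4.34 and 5.90 (lowest, median and highest) in p53 gliomas, and 4.88, 5.36, 4.27 and 6.03 in p53 Nf1KO gliomas. No Z2 glioma reached the lowest forebrain, and the highest p53 glioma was glioma 1, the array nearest to forebrain as a whole. The differences were -3.07 ± 0.31 (8.41-fold lower) and -2.45 ± 0.37 (5.46-fold lower). In Z1, forebrains read 8.46, 8.53 and 8.69 and gliomas 7.44, 7.99 and 8.30. Those groups did not overlap either, but the difference was -0.59 ± 0.34. Within an array, Gkn3 moved from the 49.6 to 52.7 percentile in Z1 forebrain to 33.8 to 46.2 in cis p53/Nf1 gliomas, and from 47.0 to 70.3 in Z2 forebrain to 18.3 to 38.9 in p53 gliomas.

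At an adjusted p under 0.05 over all probe sets, 2 of the 10 genes were higher (Cldn5, Abcg2) and 2 lower (Abcb1a, Slco1c1) in cis p53/Nf1 gliomas, where 41.9% of all probe sets were called, 21.8% higher and 20.1% lower. In p53 gliomas 1 was higher (Abcg2) and 4 lower (Ocln, Abcb1a, Slco1c1, Gkn3), with 38.1% of all probe sets called (17.5% higher, 20.6% lower), and the count was also 5 without p53 glioma 1. In p53 Nf1KO gliomas Abcg2 was higher and Gkn3 lower, with 8.38% called (5.18% higher, 3.20% lower). Since the genes were chosen on these comparisons, nothing is read from the counts. Arrays that did not overlap forebrain were found for 2 of 10 genes in cis p53/Nf1 gliomas (35.5% of all probe sets), 2 in the p53 model (9.61%) and 2 with the Nf1KO allele (20.5%). Both Z2 models were set against the same 4 forebrains. Without Z1 forebrain 2 the differences in cis p53/Nf1 gliomas were 0.85 for Cldn5, -0.28 for Ocln, 0.27 for Pecam1, 0.33 for Cdh5 and 0.20 for Mfsd2a. They were -0.34 for Slc2a1, -0.99 for Abcb1a, 1.83 for Abcg2, -1.71 for Slco1c1 and -0.61 for Gkn3. The median difference of the 10 genes was -0.02, 0.15 and 0.07 in cis p53/Nf1, p53 and p53 Nf1KO gliomas, beside 0.00, -0.04 and -0.07 over all probe sets. The counts rested on few controls: without any 1 of the 3 Z1 forebrains, Cldn5 and Abcb1a were no longer called and 2 genes were left in cis p53/Nf1 gliomas, and without Z2 forebrain 4 the count in p53 gliomas was 3. Without p53 Nf1KO glioma 4, 1 gene was left in p53 Nf1KO gliomas.

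**Figure D2:**
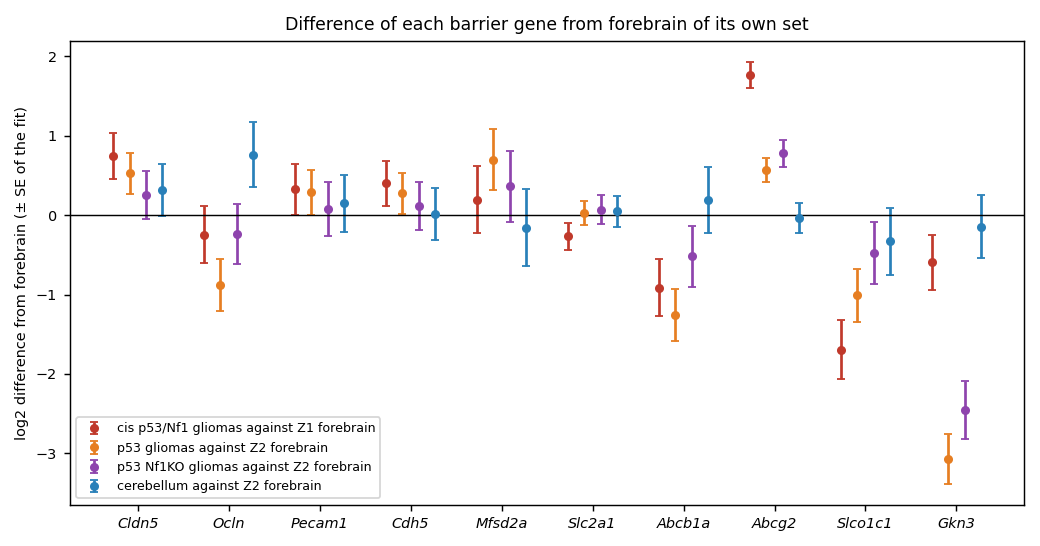
For each barrier gene, points give the log2 difference of each glioma model and of cerebellum from forebrain of its own set, and bars the SE of the fit. Gkn3 lies at -3.07 and -2.45 in the Z2 gliomas and at -0.59 in cis p53/Nf1 gliomas, Abcg2 lies above 0 in all 3 models, and the cerebellum values lie between -0.33 and 0.76.

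Cerebellum served as a normal tissue from another brain region. Against Z2 forebrain, the 10 genes differed by -0.33 ± 0.42 (Slco1c1) to 0.76 ± 0.41 (Ocln), and none was called or had an unadjusted p under 0.05 in limma, where 5.09% of all probe sets were called. Ocln read 7.68, 7.03 and 7.77 in cerebellum, of which the lowest overlapped the forebrain maximum of 7.04. Gkn3 read 7.48, 7.64 and 7.21 there, inside its forebrain range.

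Gliomas with and without the germline Nf1KO allele could be compared within Z2 without using forebrain. This compares groups of tumours and does not isolate the effect of the allele. Between p53 Nf1KO and p53 gliomas none of the 10 genes was called by limma, and 0.142% of all probe sets were. The one with an unadjusted p under 0.05 was Abcb1a, at a mean of 7.83 against 7.08, a difference of 0.74 ± 0.33 (95% interval 0.07 to 1.41, adjusted p = 0.359). Ocln, Gkn3 and Slco1c1 also had positive differences, of 0.64 ± 0.32, 0.62 ± 0.31 and 0.54 ± 0.33, with intervals that reached below 0 and adjusted p-values of 0.411, 0.407 and 0.494. The narrowest intervals were those of Abcg2, from -0.10 to 0.51, and Slc2a1, from -0.27 to 0.36, and that of Mfsd2a was the widest, from -1.12 to 0.45.

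The change from forebrain was then compared between models of different sets, as the difference of differences. These values are built from the comparisons on which the genes were chosen, so they too are a description. Abcg2 lay 1.20 ± 0.22 further above its forebrain in cis p53/Nf1 than in p53 gliomas, and 0.99 ± 0.24 further than in p53 Nf1KO gliomas. Gkn3 lay less far below forebrain in cis p53/Nf1 gliomas, by 2.48 ± 0.46 and 1.86 ± 0.50 in the same order. For Slco1c1 the difference was -0.68 ± 0.49 against p53 and -1.22 ± 0.54 against p53 Nf1KO gliomas. Abcg2 and Gkn3 were the 2 of 10 genes called in either comparison, where 1.87% and 4.10% of all probe sets were, and nothing is read from this. Set and genotype cannot be told apart here. Scaling each array to the same standard deviation moved the values against p53 gliomas to 1.56 for Abcg2 and 2.14 for Gkn3. Against p53 Nf1KO gliomas the count was 0 without Z1 forebrain 1 or without p53 Nf1KO glioma 2, and 1 without Z1 forebrain 2 or 3, without Z2 forebrain 1 or 3, or without p53 Nf1KO glioma 1 or 3.

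Variation among gliomas was examined after the mean of each glioma group was removed, which takes out the mean difference from forebrain but not how far each glioma lies along it. The p53 glioma nearest to forebrain, glioma 1, had the highest Ocln, Abcb1a and Gkn3 of its group. Over the 22 gliomas, 4 of 45 pairs had an adjusted permutation p under 0.05 (100000 permutations within groups, two-sided, chosen after the data were seen). Pecam1 and Cdh5 were the closest pair, with Pearson r = 0.90 and Spearman rho = 0.84, and an adjusted p of 0.00045, the smallest these permutations can give. Leaving out the 2 gliomas farthest from the median gave r = 0.91. Cldn5 followed Pecam1 (r = 0.69, rho = 0.67, adjusted permutation p = 0.0148, r = 0.56 without the 2 farthest) and Cdh5 (r = 0.62, rho = 0.56, adjusted permutation p = 0.0468, r = 0.50 without them). Its rho with Cdh5 had an adjusted permutation p of 0.129.

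The remaining pair was Ocln and Abcb1a, with r = 0.71 and rho = 0.71 (adjusted permutation p = 0.011, r = 0.64 without the 2 farthest). When the position of each glioma along the change from forebrain was also removed, this r was 0.50, while those of Cldn5 with Pecam1 and Cdh5 were 0.70 and 0.62 and that of Pecam1 with Cdh5 was 0.89. Abcb1a had r = -0.39 with Pecam1, which was not called. Within groups of 9, tested over 18 relations by exact permutation, Cldn5 correlated with Pecam1 in cis p53/Nf1 gliomas at r = 0.95 and rho = 0.95 (exact adjusted p = 0.00169) and with Cdh5 at r = 0.86 and rho = 0.90 (exact adjusted p = 0.0179). Without the 2 arrays farthest from the median of Cldn5 these became 0.86 and 0.69, with exact p-values of 0.00873 and 0.0833 before adjustment, and 0 of the 18 relations were called in place of 2. In p53 gliomas the values were 0.79 and 0.66, with exact adjusted p-values of 0.105 and 0.272.

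**Figure D3:**
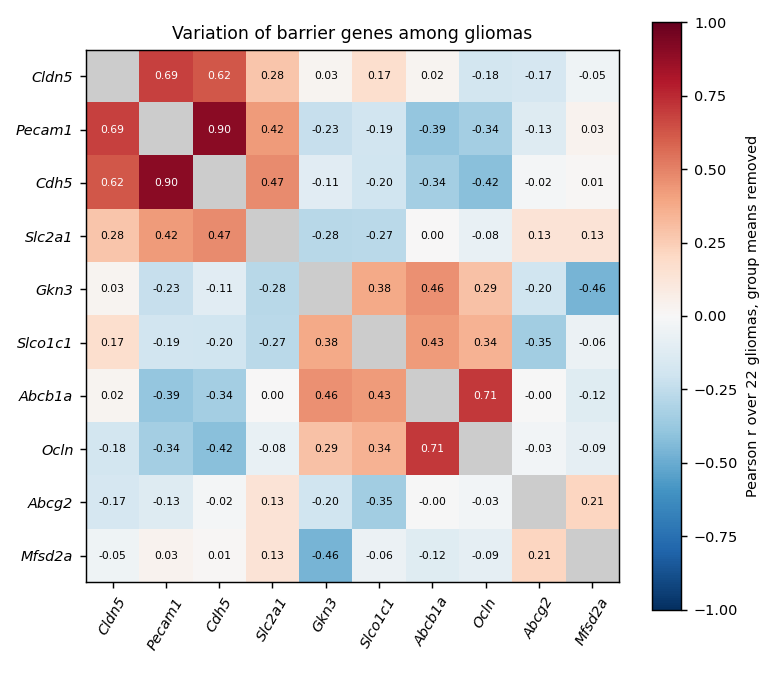
The colour of each cell gives Pearson r between 2 barrier genes over the 22 gliomas after the mean of each glioma group was removed. Pecam1, Cdh5 and Cldn5 form a block with r from 0.62 to 0.90, and Abcb1a and Ocln stand apart from it with r = 0.71 between them.

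To see which members followed vessels, each was set against the mean of 24 other endothelial genes and against marker lists of other cells, as 80 relations over the same 22 gliomas (permutation tests within groups, also chosen after the data were seen). Cldn5, Pecam1 and Cdh5 followed the endothelial list, with r = 0.85, 0.85 and 0.72, rho = 0.84, 0.84 and 0.67, and adjusted permutation p-values of 4e-04, 4e-04 and 0.00464. Without the 2 gliomas farthest from the median of the list, r was 0.82, 0.78 and 0.68. For the other 7 genes r lay between -0.21 and 0.29 and none was called. The list marks endothelium of any tissue, so it does not test the barrier label, which these arrays of bulk tissue cannot check directly.

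Ocln followed the neuron markers (r = 0.59, rho = 0.64, adjusted permutation p = 0.0429, r = 0.57 without the 2 farthest gliomas). Slco1c1 and Abcb1a followed the astrocyte markers, with r = 0.70 and 0.60, rho = 0.62 and 0.70, and adjusted permutation p-values of 0.0119 and 0.0403, and r = 0.49 and 0.56 without the 2 farthest. With the position along the change from forebrain removed as well, r was 0.25 for Ocln with the neuron markers, 0.59 for Slco1c1 and 0.32 for Abcb1a with the astrocyte markers. Pecam1 and Cdh5 also followed the platelet markers (r = 0.63 and 0.65, rho = 0.66 and 0.71, adjusted permutation p = 0.0439 and 0.0159). Without the 2 farthest gliomas those became 0.75 and 0.67. Markers of pericytes followed Cldn5 (r = 0.76, rho = 0.78, adjusted permutation p = 0.001), Pecam1 (r = 0.74, rho = 0.70, adjusted permutation p = 0.00766) and Cdh5 (r = 0.59, rho = 0.46, adjusted permutation p = 0.0413), and r was 0.70, 0.59 and 0.50 without the 2 farthest. The list of hypoxia genes followed Pecam1 (r = 0.80, rho = 0.79, adjusted permutation p = 0.001) and Cdh5 (r = 0.69, rho = 0.72, adjusted permutation p = 0.00766), with r = 0.70 and 0.63 without the 2 farthest. Slc2a1, whose gene responds to low oxygen in many cells, followed the platelet list alone (r = 0.53, rho = 0.31, adjusted permutation p = 0.0494, r = 0.51 without the 2 farthest), and its rho had an adjusted permutation p of 0.386. These make up all 14 of the 80 relations that were called. Abcb1a also had r = 0.53 and rho = 0.58 with the neuron markers, and r = 0.26 and rho = 0.49 with the oligodendrocyte markers. Ocln had r = 0.46 and rho = 0.53 with the astrocyte markers, and r = 0.41 and rho = 0.52 with the oligodendrocyte markers. With the hypoxia list, Slco1c1 had r = -0.56 and rho = -0.53 (adjusted permutation p = 0.0533). Cldn5 had r = 0.48 and rho = 0.53 with that list, and Slc2a1 had r = 0.44 and rho = 0.29. Slco1c1 also had r = -0.52 and rho = -0.43 with the platelet markers. None of these was called, and whether a member followed any list more closely than another was not tested.

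The levels of those markers moved with the groups as well. The mean of 8 neuron markers was 6.83 to 9.17 in cis p53/Nf1 gliomas against 12.32 to 12.63 in Z1 forebrain, and 6.04 to 11.05 in p53 gliomas against 10.63 to 11.16 in Z2 forebrain. All 8 were lower in cis p53/Nf1 gliomas and 6 in p53 gliomas, and none was called in p53 Nf1KO gliomas. Of 8 astrocyte markers, 6 were lower in cis p53/Nf1 gliomas, among them the gap junction gene Gja1 by -4.11 ± 0.62, and 2 in p53 gliomas. The mean of the 8 ran from 8.30 to 11.05 in cis p53/Nf1 gliomas, against 11.22 to 11.59 in Z1 forebrain, and from 7.96 to 9.58 in p53 gliomas, against 9.38 to 9.70 in Z2 forebrain. Oligodendrocyte markers were lower for 4 and 2 of 7 in the same models. Of 5 platelet markers, 1 was lower in each Z2 model and none was called in cis p53/Nf1 gliomas, and of 5 meningeal fibroblast markers 1 was higher and 1 lower in cis p53/Nf1 gliomas (0 lower without Z1 forebrain 2) and likewise in p53 gliomas. The part of these cells in the lower Ocln, Abcb1a and Slco1c1 was not tested.

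The genes nearest to each member in this sense, by Pearson r over the 22 gliomas with group means removed, are given as a description. For Pecam1 they were Robo4 at 0.96, Adgrl4 at 0.91 and Cdh5 itself. Those of Cdh5 after Pecam1 were Robo4 and Pfkfb3, both at 0.84. Cldn5 was nearest to Pear1 (0.87), Eva1b (0.86) and Icam2 (0.86). Robo4, Adgrl4 and Icam2 are endothelial genes.

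Other members had neighbours of other kinds. Abcb1a was nearest to Nicn1 (0.88), Kcnc1 (0.84), a potassium channel of neurons, and Pdk2 (0.83). Ocln was nearest to Nap1l3 (0.88) and Dcaf12l1 (0.87), Mfsd2a to Frmpd1 (0.88), Dll3 (0.80) and Morn3 (0.80), and Slco1c1 to Plaat3 (0.85), Gatd3a (0.84) and Pex7 (0.79). Abcg2 was nearest to Mtm1 (0.79), Cdkn2a (0.78) and Etv4 (0.78). Slc2a1 had the weakest neighbours, S100a10, the endothelial receptor gene Flt1 and Thbs1, all at 0.67, and Gkn3 had Otop2 (0.87) and Icam4 (0.82).

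Each member was also taken relative to the mean of Pecam1 and Cdh5 in the same array, which shows unequal change within an array. Pecam1 and Cdh5 themselves had positive mean differences from forebrain. These were 0.32 and 0.40 in cis p53/Nf1, 0.29 and 0.27 in p53, and 0.08 and 0.12 in p53 Nf1KO gliomas. A rise of the reference lowers the mean of every member on this scale. On this scale Slco1c1 lay below every forebrain in 9 of 9 cis p53/Nf1 gliomas, with a mean difference from forebrain of -2.06 ± 0.76 (SD, n = 9), in 7 of 9 p53 gliomas (-1.29 ± 1.16) and in 3 of 4 p53 Nf1KO gliomas (-0.57 ± 0.40). Abcb1a lay below every forebrain in 8 of 9, 8 of 9 and 3 of 4 gliomas, with means of -1.27 ± 0.85, -1.54 ± 1.10 and -0.62 ± 0.90. Ocln lay below every forebrain in 6 of 9, 7 of 9 and 2 of 4 gliomas, with means of -0.61 ± 1.10, -1.16 ± 0.96 and -0.33 ± 0.44, and Slc2a1 in 8 of 9, 5 of 9 and 2 of 4 (-0.63 ± 0.47, -0.25 ± 0.51 and -0.03 ± 0.32). Some gliomas lay above every forebrain instead: 3 of 9 cis p53/Nf1 gliomas for Ocln and 1 of 9 p53 gliomas for Abcb1a. For Slc2a1 these were 3 of 9 p53 and 2 of 4 p53 Nf1KO gliomas, beside a narrow Z2 forebrain range of -0.06 to 0.06. Mfsd2a lay above every forebrain in 2 of 9, 4 of 9 and 2 of 4 gliomas. It lay below every forebrain in 3 of 9, 2 of 9 and 0 of 4. Low values on this scale were thus found for several members, but not in all gliomas. They include the shift of the reference: on the deposited scale Slc2a1 differed by -0.27 in cis p53/Nf1 and 0.03 in p53 gliomas.

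Abcg2 lay above every forebrain in 9 of 9 cis p53/Nf1 gliomas (1.41 ± 0.59), 6 of 9 p53 gliomas (0.29 ± 0.61) and 3 of 4 p53 Nf1KO gliomas (0.68 ± 0.65). Gkn3 was below every forebrain in all 22 gliomas, by -0.96 ± 0.39, -3.35 ± 1.06 and -2.55 ± 0.91. Cldn5 lay above every forebrain in 6 of 9, 6 of 9 and 3 of 4 gliomas, with means of 0.38 ± 0.22, 0.25 ± 0.40 and 0.16 ± 0.74, and its p53 Nf1KO gliomas ran from -0.92 to 0.75. Without Z1 forebrain 2, Cldn5 lay above the other forebrains in 9 of 9 cis p53/Nf1 gliomas (0.55 ± 0.22), and the counts of Slco1c1, Abcb1a, Ocln, Slc2a1, Abcg2 and Gkn3 in that model were as before. On this scale the 5 transporters were also compared between p53 Nf1KO and p53 gliomas, by an exact two-sided permutation test over 715 splits. None was called (lowest adjusted exact p = 0.552). The differences were 0.93 for Abcb1a, 0.72 for Slco1c1, 0.39 for Abcg2, 0.22 for Slc2a1 and -0.15 for Mfsd2a. With 4 and 9 arrays, such differences are not excluded.

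**Figure D4:**
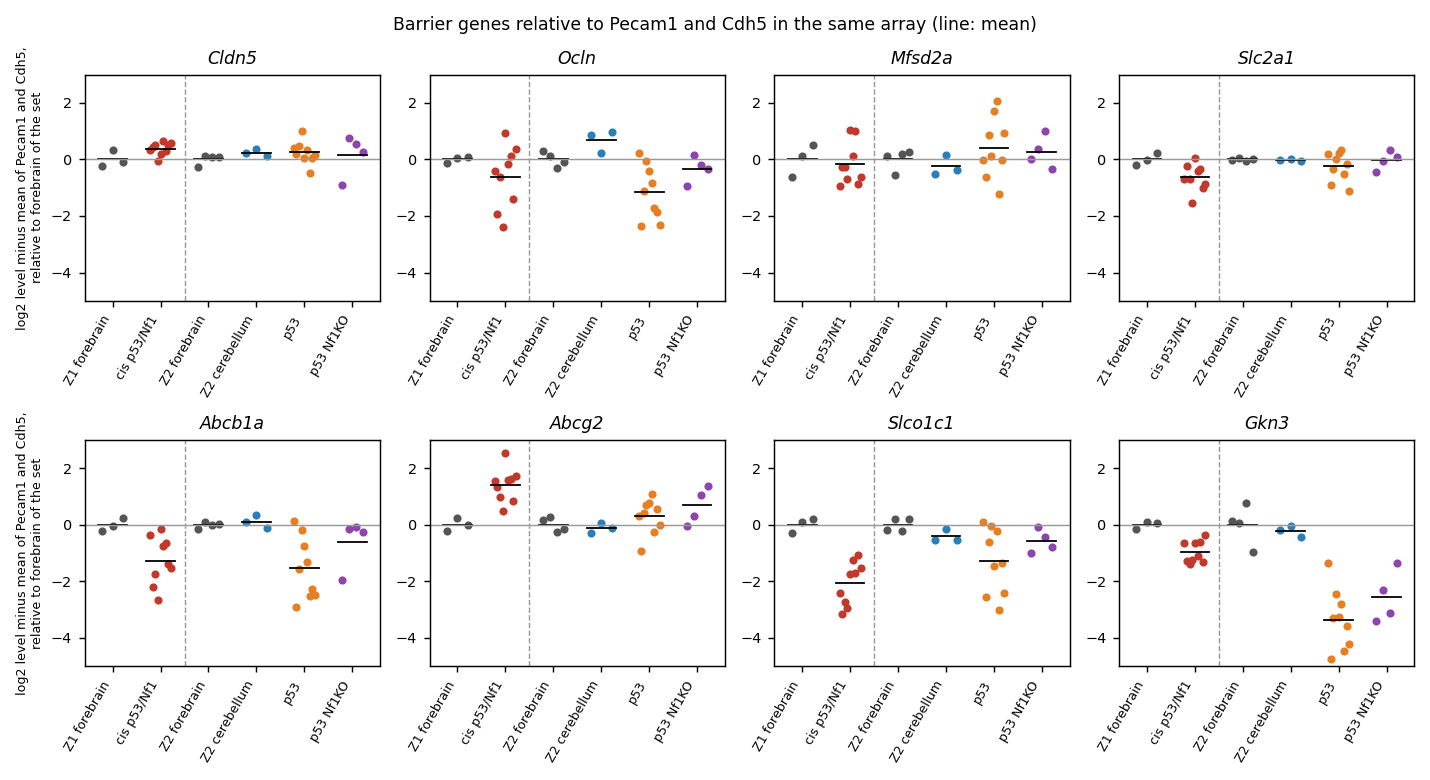
Points give, for each array, the log2 level of a barrier gene minus the mean of Pecam1 and Cdh5, set to 0 at the mean of forebrain of its set, with lines at group means. Slco1c1 and Abcb1a lie below 0 in most gliomas, Abcg2 lies above 0 in the 9 cis p53/Nf1 gliomas, and Gkn3 lies below every forebrain in all 22.

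Further genes of the barrier were counted by lists that leave out the 10 members. Over all probe sets, 21.8% were higher and 20.1% lower in cis p53/Nf1 gliomas, 17.5% and 20.6% in p53 gliomas, and 5.18% and 3.20% in p53 Nf1KO gliomas, and a share near these is not a result about a list. Without Z1 forebrain 2, 34.3% of all probe sets were called in cis p53/Nf1 gliomas in place of 41.9%. Among 15 other barrier transporters, 7 rose and 2 fell in cis p53/Nf1 gliomas and 5 rose and 3 fell in p53 gliomas. The amino acid carrier gene Slc7a5 rose by 2.34 ± 0.25 in cis p53/Nf1 gliomas (limma adjusted p = 6.51e-08), by 1.28 ± 0.23 in the p53 model (adjusted p = 0.000131) and by 1.11 ± 0.27 with the Nf1KO allele (adjusted p = 0.0109). The efflux pump gene Abcc4 rose by 1.62 ± 0.21 and 0.82 ± 0.19 in the first pair of models. The organic anion carrier genes Slc22a8 and Slco1a4 fell, by 1.45 and 1.42 in cis p53/Nf1 gliomas and by 1.70 and 1.27 in p53 gliomas. Without Z1 forebrain 2, 6 of the 15 rose and 0 fell in cis p53/Nf1 gliomas, with adjusted p-values of 0.0839 for Slc22a8 and 0.0614 for Slco1a4 (limma).

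Abcb1b, the other mouse gene for P-glycoprotein, moved against Abcb1a. It rose by 1.69 ± 0.38 in the cis model (limma adjusted p = 0.000612), by 1.81 ± 0.34 in the p53 model (adjusted p = 0.000257) and by 1.70 ± 0.40 with the Nf1KO allele (adjusted p = 0.00985). The paralogs are similar in sequence, and how fully their probes tell them apart was not tested. In p53 Nf1KO gliomas Abcb1b and Slc7a5 were the only 2 of the 15 that changed. Against the change in p53 gliomas, the thiamine carrier gene Slc19a3 differed in cis p53/Nf1 gliomas by 0.93 ± 0.24 (adjusted p = 0.0373). Against the change in p53 Nf1KO gliomas it was not called (0.72 ± 0.26, adjusted p = 0.106), while Abcc4 was, at 1.22 ± 0.30 (adjusted p = 0.0202).

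Of 9 other tight junction genes, 3 rose in cis p53/Nf1 gliomas: Jam3 by 1.86 ± 0.32, Jam2 by 1.63 ± 0.35 and Tjp1, which encodes the scaffold ZO-1, by 0.70 ± 0.23. In p53 gliomas Jam2 rose by 1.44 ± 0.31 and Jam3 by 0.90 ± 0.29, while Cgn, which encodes cingulin, fell by 1.03. Several of these genes are also expressed outside endothelium. None of the 9 was called in p53 Nf1KO gliomas.

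The permeability and activation list held 8 genes, of which 4 rose and 1 fell in cis p53/Nf1 and likewise in p53 gliomas. The adhesion gene Icam1 rose by 2.32 ± 0.47 and 2.05 ± 0.42, the caveolin gene Cav1 by 2.08 ± 0.40 and 1.26 ± 0.36, and Vcam1 by 0.92 ± 0.34 and 1.01 ± 0.31. Plvap, which encodes a protein of fenestrated and leaky vessels, fell by 0.91 (limma adjusted p = 0.0278) and 0.82 (adjusted p = 0.0317), and its difference in p53 Nf1KO gliomas was -0.38 ± 0.35 (adjusted p = 0.513). Without Z1 forebrain 2, 3 of the 8 rose and 0 fell in cis p53/Nf1 gliomas, and the adjusted p was 0.0634 for Plvap and 0.084 for Vcam1 (limma). Of 6 choroid plexus markers, whose tissue has fenestrated vessels, 5 were lower in p53 gliomas and 1, Ttr, in cis p53/Nf1 gliomas (0 without Z1 forebrain 2). The part of choroid plexus in the Plvap values was not tested.

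Wnt ligands from neural cells induce the barrier through endothelial beta-catenin. Wnt7a, Wnt7b and the nuclear effector Lef1 were not called in any model, with differences in cis p53/Nf1 gliomas of 0.30 ± 0.43, 0.30 ± 0.24 and 0.18 ± 0.27. In p53 gliomas they were 0.14 ± 0.39, 0.02 ± 0.22 and -0.52 ± 0.24. Of the 18 genes of the list, 2 rose and 1 fell in cis p53/Nf1 gliomas and 2 rose and 2 fell in p53 gliomas. The co-receptor gene Lrp6 rose by 0.96 ± 0.23 and 0.52 ± 0.20, and the endothelial transcription factor gene Sox17 fell by 0.69 and 0.90. Sox17 had an adjusted p of 0.103 in cis p53/Nf1 gliomas without Z1 forebrain 2 (limma).

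Of 9 tip cell and angiogenic genes, 3 rose in cis p53/Nf1 gliomas (2 without Z1 forebrain 2) and 5 in p53 gliomas (6 without glioma 1), and none fell. Cxcr4, which encodes a chemokine receptor, rose by 3.19 ± 0.47, 2.44 ± 0.42 and 1.78 ± 0.50 in cis p53/Nf1, p53 and p53 Nf1KO gliomas, and Mcam by 2.28 ± 0.51 and 2.06 ± 0.46 in the first pair. Esm1 (2.83 ± 0.83) and Angpt2 (2.71 ± 0.64), genes of sprouting vessels, rose in p53 gliomas. Of 8 hypoxia genes, 1 rose (0 without Z1 forebrain 2) and 2 fell in cis p53/Nf1 gliomas, and 1 rose, Car9 by 2.91 ± 0.87, and 1 fell in p53 gliomas. Vegfa, which low oxygen induces, was not called, at 0.41 ± 0.38, 0.57 ± 0.34 and -0.29 ± 0.40.

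The 24 other pan-endothelial genes gave 4 higher and 3 lower in cis p53/Nf1 gliomas (2 lower without Z1 forebrain 2), and 4 higher and 1 lower in p53 gliomas, shares below those of all probe sets. Vwf, which encodes von Willebrand factor, rose by 1.54 ± 0.45 and 1.34 ± 0.40, and the angiopoietin receptor gene Tek fell by 1.24 and 1.14. Among 12 other genes enriched in brain endothelium, 5 fell and 1 rose in cis p53/Nf1 gliomas and 4 fell and 1 rose in p53 gliomas. Cxcl12 fell by 3.29 and 1.94 at the probe set with the highest mean of its 3, and the others are not given here. The carbonic anhydrase gene Car4 fell by 2.93 and 1.71, and Ctla2a rose by 1.70 ± 0.52 and 1.85 ± 0.47. In cis p53/Nf1 gliomas 3 of the 12 fell and 1 rose without Z1 forebrain 2. Of 10 arterial genes beside Gkn3, Efnb2 fell by 1.27 and 0.94 and Jag1 rose by 1.21 ± 0.27 and 0.80 ± 0.25. Bmx fell in both Z2 models, by 0.59 in p53 and 0.53 in p53 Nf1KO gliomas.

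Without p53 glioma 1, 43.9% of all probe sets were called in p53 gliomas. The counts there that changed were 3 higher tight junction genes in place of 2, 2 lower permeability genes in place of 1, 5 higher pan-endothelial genes in place of 4, 5 lower brain endothelial genes in place of 4, 3 lower arterial genes in place of 2 and 2 higher hypoxia genes in place of 1.

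Between p53 Nf1KO and p53 gliomas, 0 genes of these lists were called by limma. Pericytes, which wrap the same vessels, gave no common direction over 9 markers, with 1 higher and 2 lower in cis p53/Nf1 gliomas (1 lower without Z1 forebrain 2) and 1 higher in each Z2 model. The highest of them, Cspg4 (3.23 ± 0.53 in cis p53/Nf1 gliomas), is also a marker of oligodendrocyte progenitors. Microglia and macrophage markers were higher for 3 and lower for 1 of 8 in cis p53/Nf1 gliomas, and higher for 4 and 2 of 8 in p53 and p53 Nf1KO gliomas.

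**Figure D5:**
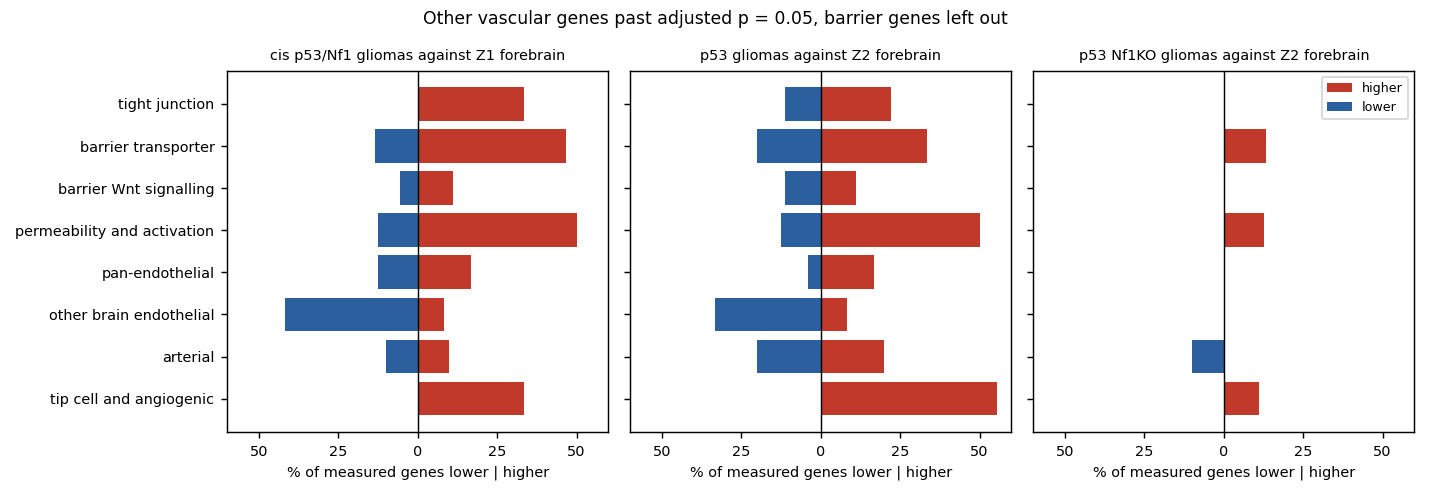
Bars give the percentage of measured genes of each vascular list that were higher (right) or lower (left) than forebrain at an adjusted p under 0.05, for the 3 glioma models. The tip cell and angiogenic list has only bars to the right, and the list of other brain endothelial genes has its longer bars to the left in cis p53/Nf1 and p53 gliomas.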

How the data were processed

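Total RNA was labelled as biotin cRNA and hybridised to Affymetrix arrays, per the labels' protocols. What the authors deposited are log2 values, already normalized, of 18328 custom probe sets, in a matrix and a series table that are identical in every cell. The summarisation and normalization behind these log2 values, and whether both sets were normalized together, are not given in the sources used here. Arrays carry no read depth, and their number limits the precision.

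Using limma 3.58.1 (R 4.3.3), 1 model with a term for each of the 6 groups was fitted over the 32 arrays, which then share an estimate of the spread, and p-values were adjusted by Benjamini-Hochberg over all probe sets, with a call at an adjusted p under 0.05. All probe sets were kept in the fit, which was tested on simulated data. For the gene lists and the nearest genes, a gene with several probe sets entered by the one with the highest mean. Correlations and permutations were computed with Python 3.11.15, NumPy 2.4.6 and SciPy 1.17.1. Tests are two-sided.

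The members, gene lists and tests were chosen with earlier results of these data known. Named genes were all 10 members, the 3 nearest genes of each by correlation (2 for Ocln and Gkn3, where the remaining gene is not reported here), at most 4 called genes with the largest differences per list and comparison, and Plvap, Abcb1b, Wnt7a, Wnt7b, Lef1 and Vegfa throughout. Promoters came from RefSeq (GRCm38.p6), and shared replicate numbers did not pair arrays. Alternatives were other scalings, a filter on low probe sets, 1 probe set per gene, the compared groups alone, a stricter threshold, a replicate block, and each control or small-group array left out. Leaving out Z1 forebrain 2 or p53 glioma 1 for the lists and the scale relative to Pecam1 and Cdh5, and removing the position of each glioma along the change from forebrain, were chosen after seeing the data.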

Additional observations from a re-analysis of the deposited data

Results flagged for a closer look

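The change from forebrain differed between models for Abcg2 and Gkn3, but these genes were chosen on the very differences compared, so the values are a description. For Abcg2 the change in cis p53/Nf1 gliomas exceeded that in p53 gliomas by 1.20 log2 and that in p53 Nf1KO gliomas by 0.99. For Gkn3 the corresponding differences were 2.48 and 1.86, since it lay further below forebrain in both Z2 models. Each of these comparisons crosses the sets, so set and genotype cannot be told apart.

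Over 40 combinations of a gene and a group of 4 to 9 arrays, 2 had an array far from the rest of its group, where chance gives about 1 in 20. Cdh5 was lowest in Z2 forebrain 2, at 4.91 against 5.13 to 5.17 in the other 3. It was highest in p53 Nf1KO glioma 1, at 5.75 against 4.96 to 5.09 in the other 3.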

How the results depend on the processing

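Of 1100 values of single genes recomputed under the alternatives, 1024 kept direction and side of the threshold, 37 were no longer called, 2 were newly called and 37 changed sign, all of the last uncalled in the main setting. At an adjusted p under 0.01 the genes called numbered 2 for cis p53/Nf1, 3 for p53 and 0 for the cis p53/Nf1 change against the p53 Nf1KO change. The replicate numbers shared within a set did not pair arrays (24 pairs, r from -0.33 to 0.37). The replicate block gave each number within a set its own term. A glioma whose number no other array of its set carried was thereby fitted exactly. Such gliomas dropped out of the comparisons, so the block compared fewer gliomas than the main fit. With the block, 2 genes were called in p53 gliomas and 1 in each comparison of changes between sets. The probe sets called in p53 gliomas numbered 1253 in place of 6991. Leaving out 1 array gave 2 genes for the cis model, 3 to 5 for p53, 1 to 2 for p53 Nf1KO and 0 to 2 for the cis p53/Nf1 change against the p53 Nf1KO change; the comparison with the p53 change kept 2. Without the 2 arrays farthest from its median, 0 correlations of Cldn5 were called in place of 2, with fewer arrays. With the pan-endothelial list as the reference, Slc2a1 in cerebellum moved from -0.03 to 0.0569. Sign changes by median centring were Slc2a1 at -0.0375 in p53 gliomas and, in cerebellum, Cdh5 at -0.0427 and Slc2a1 at -0.0110, and scaling to the same SD gave -0.0375, -0.0392 and -0.00997. Quantile normalization gave Pecam1 at -0.0372 and Cdh5 at -0.00225 in p53 Nf1KO gliomas, and Ocln at 0.0397 for the cis p53/Nf1 change against the p53 Nf1KO change. The replicate block gave Slc2a1 at 0.0257 in cis p53/Nf1, -0.0258 in p53 and 0.0514 between their changes, Mfsd2a at 0.0142 in cerebellum and 0.0494 between Z2 models, and Cdh5 at -0.0201 in cerebellum. Leaving out 1 array ranged, in cerebellum, from -0.13 to 0.0475 for Abcg2, -0.0421 to 0.0432 for Cdh5, -0.45 to 0.17 for Gkn3 and -0.0121 to 0.0892 for Slc2a1. In p53 Nf1KO gliomas it ranged from -0.0660 to 0.20 for Cdh5 and -0.14 to 0.20 for Pecam1, in p53 gliomas from -0.0297 to 0.0716 for Slc2a1, in the cis model from -0.0820 to 0.47 for Mfsd2a, and between Z2 models from -0.0164 to 0.10 for Slc2a1. Between changes it ranged from -0.46 to 0.11 for Mfsd2a and -0.11 to 0.14 for Ocln (against p53 Nf1KO) and -0.0716 to 0.14 for Pecam1 (against p53). Beyond the gliomas that dropped out under the replicate block, the cause of these shifts was not tested. Median centring put the median of all probe sets at -0.11 in p53 and -0.12 in p53 Nf1KO gliomas, and moved the share of higher calls in the latter from 61.8% to 51.8%. Few Z1 forebrains and p53 Nf1KO gliomas limit what can be called.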
